A study of Mus musculus with 6 samples.

Results

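Imprinted genes are expressed mainly from the copy inherited from 1 parent. The 10 genes described here sit at scattered imprinted domains of the mouse genome, outside the large clusters of chromosomes 6, 7 and 12. They are Igf2r, Airn, Grb10, Plagl1, Zrsr1, Commd1, Nnat, Impact, Gnas and Zdbf2. They were chosen by symbol, after the Ensembl identifiers of the count table had been matched to gene names. No measured value entered the rule, although earlier results of these data were known when the choice was made. All 10 were found among the 43309 genes of the table, and all 10 were among the 16823 genes that were tested, those reaching 10 counts in 1 or more libraries.

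The fragments of each gene were counted in 6 libraries of polyadenylated RNA from mouse embryonic stem cells (mESCs), pluripotent cells grown here in serum medium on gelatin without feeder cells. The lines carry the J1 (129SV) strain label, and the study prepared the libraries in the course of evaluating RNA-Seq library kits. The 3 control libraries came from clones labelled wild-type with the genotype 2lox/+, in which 1 Zbtb24 allele carries loxP sites and the other is unaltered. The other 3 came from clones labelled Zbtb24 knockout with the genotype 1lox/1lox, in which both alleles are the form left by recombination between the loxP sites. The paper describes 3 independently derived lines per genotype as biological replicates. Libraries of a group differed little, with a coefficient of variation of 2.004% beyond counting error. How far this small spread, on which the p-values below rest, includes differences between clones was not tested. Total counts ranged from 25042261 to 28838924 per library.

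The targeted gene was checked first. Zbtb24, which codes for a DNA-binding zinc finger protein, had 510, 512 and 489 counts in control and 888, 925 and 1039 in labelled knockout. The log2 fold change (knockout minus control throughout) was 0.99 (SE 0.050, adjusted p = 4.32e-23, edgeR's quasi-likelihood test, p-values adjusted by Benjamini-Hochberg over all genes tested). Counts over a whole gene do not show which exons were covered, so the label could not be checked by the level, and the group is called "labelled knockout" below. Of 8 ES cell markers, 7 were higher and Zfp42 was lower in the libraries labelled knockout, and their summed level was 4695 to 4792 cpm (counts scaled to a common library size, TMM-normalized) in control and 6009 to 6037 in labelled knockout. Markers of fibroblasts, the usual feeder cells, were lower for 5 of 5 genes, with summed levels of 55.8 to 59.1 cpm against 9.49 to 10.1 cpm. Postn, low in control with 7, 8 and 11 counts, had no count in any library labelled knockout. The part of these markers in the results below was not tested. Summed markers of primitive endoderm were at 9.95 to 11.6 cpm in control against 8.12 to 9.63 in labelled knockout. Those of neural cells were at 291 to 296 against 274 to 280 cpm. For mesoderm the sums were 13.4 to 14.9 against 8.50 to 10.03 cpm, and for trophoblast 67.3 to 71.3 against 70.8 to 74.3. These sums can hide single genes. Of 5 primitive endoderm markers, 0 were higher and 2 lower at an adjusted p of at most 0.05 (edgeR). Of 5 neural markers 2 were higher and 2 lower, of 4 mesoderm markers 2 and 1, and of 4 trophoblast markers 1 and 2. The lowest log2 fold changes were -1.49, -2.33, -3.15 and -3.15 in that order, and the highest 0.17, 1.23, 1.18 and 0.41.

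At an imprinted domain, a stretch of DNA is methylated in the egg or in the sperm, and the mark is carried into the cells of the embryo, where it sets which parental copy is read. The zinc finger protein ZFP57 binds the hexamer TGCCGC when it is methylated and, with its partner TRIM28, keeps the mark in place in early embryos and ES cells. Counts per gene hold no record of the parental copy, so a level here is the sum over both copies. A change in that sum does not show whether 1 copy or both changed, and in bulk RNA fewer cells expressing a gene and less RNA per cell cannot be told apart.

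The start sites of the genes are shown first because the imprint marks of several of these domains lie at promoters. RefSeq windows of 300 bases (250 before and 50 after each start site, build GRCm38.p6) were found for all 9 genes that were looked up, 15 windows in all. Impact was not looked up. TGCCGC, searched on both strands, was present in 5 of the 15 windows, those of 5 genes, and in 11.61% of the 32851 windows in the table. The stretches with the hexamer are given 5′ to 3′ on the strand of the gene, with TGCCGC or its reverse complement GCGGCA in capitals. They lie at chr11:22982258-22982287 (minus strand) for Commd1, chr11:12037379-12037408 (minus strand) for Grb10, chr2:157560093-157560122 (plus strand) for Nnat, chr10:13090730-13090759 (plus strand) for Plagl1 and chr1:63200191-63200268 (plus strand) for Zdbf2.
Commd1: ctcagccgctggGCGGCAggccctccttag
Grb10: gggtgcggggagGCGGCAggaagggaaggg
Nnat: gccaccggggctGCGGCAttgcgcccagca
Plagl1: ctggcgtgttgcGCGGCAaagcccacggca
Zdbf2: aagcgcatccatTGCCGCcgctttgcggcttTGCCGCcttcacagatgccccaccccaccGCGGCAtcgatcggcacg
The hexamer began at base 10 after the start site in Commd1, at base 25 in Grb10 and at base 28 in Nnat, and upstream at -90 in Plagl1. Zdbf2 had 3 matches, the first at -155, in the window of its distal start site, and its other window had none. Commd1 and Grb10 each also had another window, without a match. These 5 genes did not move one way in the counts, since Grb10 and Nnat were lower in the libraries labelled knockout and Plagl1 and Commd1 were higher, while the direction of Zdbf2 depended on the scaling. AGGACCT, the core known for ZBTB24 and also searched on both strands, was in 0 of the 15 windows and in 4.883% of all windows. The 15 windows held a median of 18 CG dinucleotides (range 3 to 45), against a median of 7 over all windows. A match or its absence describes these letters only.

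All 10 genes passed the test, 5 of them higher (Igf2r, Plagl1, Zrsr1, Commd1 and Zdbf2, the last of which was lower once scaled within its chromosome) and 5 lower (Airn, Grb10, Nnat, Impact and Gnas) in the libraries labelled knockout. The groups differed at most genes, however. Of all genes tested, 69.5% passed at an adjusted p of at most 0.05, 34.4% as higher and 35.2% as lower. Every count of neighbours or listed genes below is to be read beside these shares. A count of 10 of 10 therefore stands beside a background in which most genes passed, and with 10 genes it is a description. For 9 of the 10 genes, all but Zrsr1, normalized values showed no overlap between groups, and the same held for 71.5% of all genes tested. An adjusted p of at most 0.05 together with a log2 fold change of 1 or more in size was reached by Airn and Grb10, 2 of the 10, against 17% of all genes tested. The median log2 fold change was -0.27 over the 10 genes and -0.00 over all genes tested, and the median absolute value was 0.62 against 0.33. The plot of normalized values by library shows how far apart the groups were for each gene, and the plot of log2 fold changes sets both scalings side by side.

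**Figure D1:**
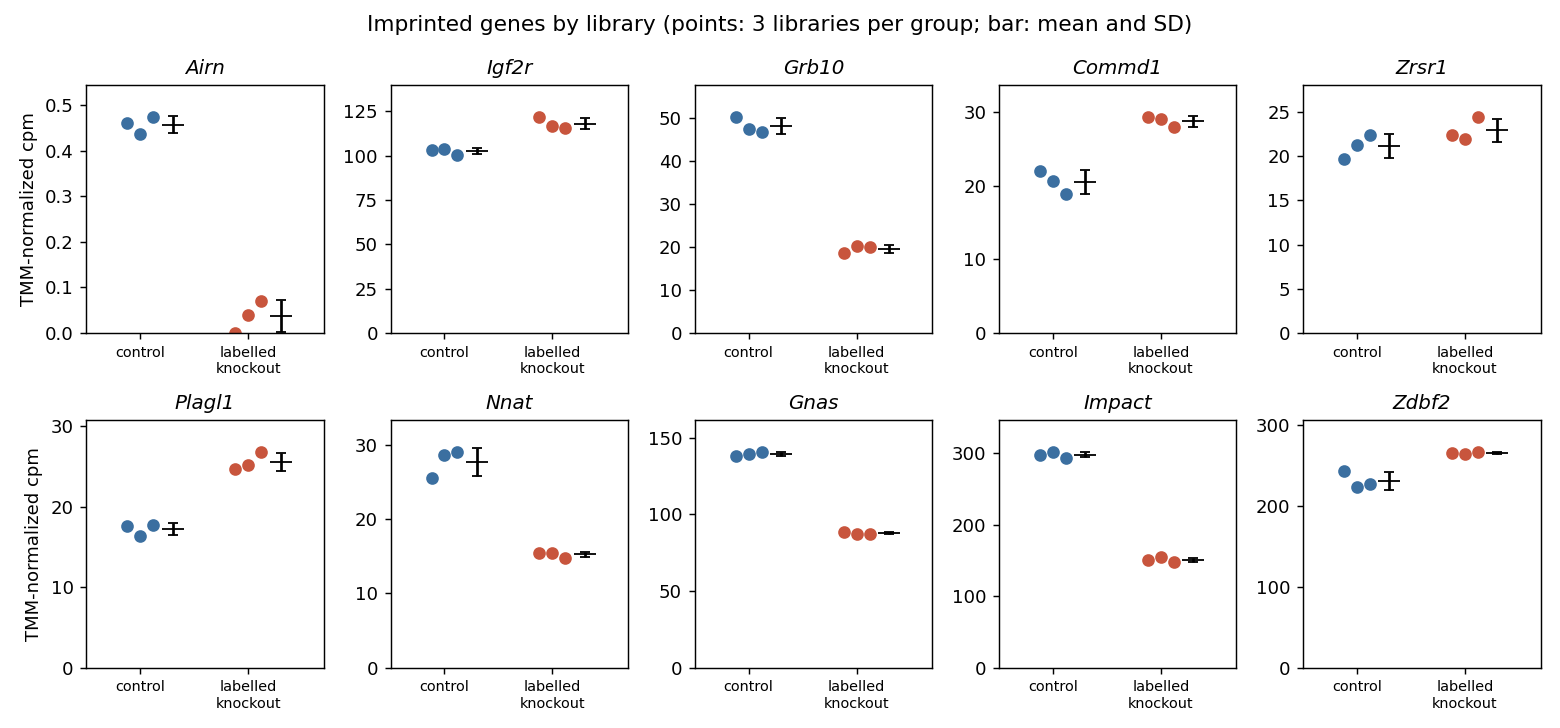
Level in TMM-normalized cpm (1 panel and axis per gene, starting at 0) in each of the 3 control libraries (blue points) and the 3 libraries labelled knockout (red points), with the mean and SD of each group as bars. The groups are apart for every gene except Zrsr1, whose control values reach 22.4 and whose labelled knockout values start at 22.0.

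**Figure D2:**
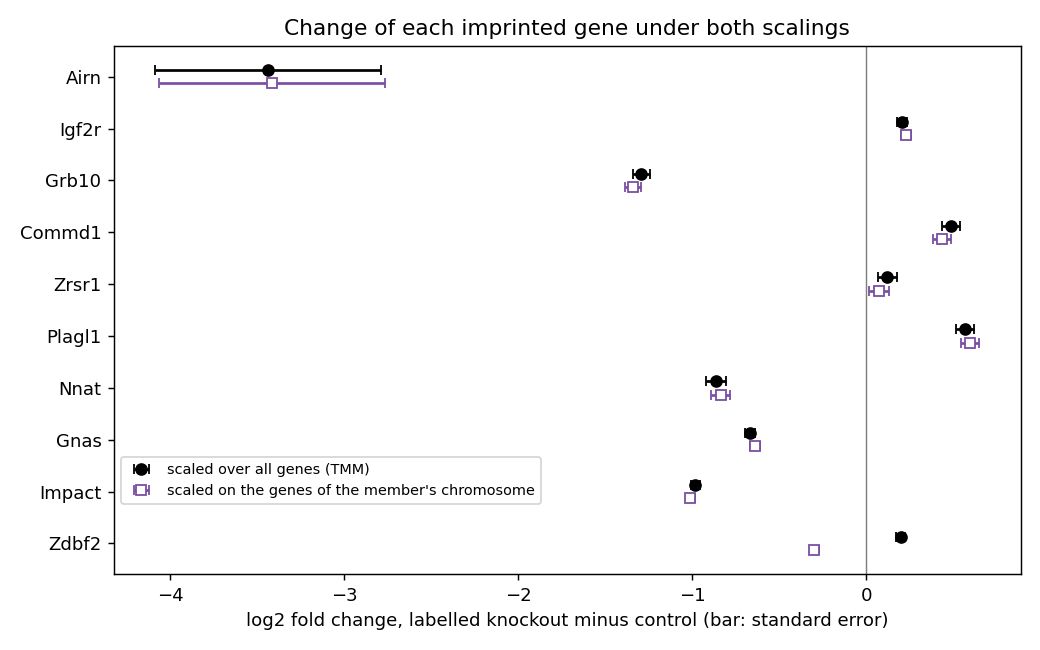
Log2 fold change (knockout minus control) of the 10 genes with its standard error as a bar, scaled over all genes (black circles) and scaled on the genes of the same chromosome (open squares). Airn and Grb10 lie below -1 under both scalings, Impact is at -0.98 under the common scaling and at -1.01 under the other, and Zdbf2 is at 0.20 under the common scaling and at -0.30 under the other.

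Igf2r and Airn share a domain on chromosome 17 and are read from opposite strands. Igf2r (ENSMUSG00000023830, chr17:12682406-12769664, minus strand) encodes the cation-independent mannose-6-phosphate receptor, which sorts enzymes to lysosomes and takes up IGF2 for degradation, and is known as maternally expressed. Airn (ENSMUSG00000078247, chr17:12741311-12860136, plus strand) is a long noncoding RNA that starts inside Igf2r and is known to be read from the paternal copy and to silence Igf2r there. Airn had 13, 12 and 13 counts in control and 0, 1 and 2 in labelled knockout. Every labelled knockout library was thus below every control library, although all of these counts were low. They cover only polyadenylated RNA of its annotated exons. Summed over the libraries, 38 counts stood against 3, a ratio of 12.04 (exact 95% interval 3.82 to 61.0, which covers counting error only). The fitted log2 fold change of Airn was -3.44 (SE 0.649, adjusted p = 7.67e-06, edgeR). It moved with a single library, being -4.24 without labelled knockout replicate 3, which held 2 of the 3 counts, and -2.91 without labelled knockout replicate 1, which held none.

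Igf2r itself changed little. It had 2903, 2847 and 2757 counts in control and 3177, 2874 and 3265 in labelled knockout, or 102 ± 1.73 against 118 ± 3.20 normalized cpm (SD, n = 3 libraries each). The difference of 1.152-fold was small but exceeded the spread between libraries (log2 fold change 0.20, SE 0.0294, adjusted p = 3.29e-08, edgeR). Slc22a2 and Slc22a3, organic cation transporters that are silenced by Airn in placenta, and Mas1 had at most 9 counts in any library and were not tested. Within 1 Mb of Igf2r, 13 other genes had a mean of at least 10 counts, and Airn was not among them. Of these 13, 5 were higher and 3 were lower, with a median log2 fold change of 0.03.

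The partners of IGF2R in lysosomal sorting did not move one way. Of 10 genes, 3 were higher, 4 were lower and 3 did not pass, with a median log2 fold change of -0.00. M6pr, the other mannose-6-phosphate receptor, was higher (0.59, SE 0.0252, adjusted p = 7.43e-26, edgeR). It lies on chromosome 6, whose median log2 fold change was 0.16. Scaled within their own chromosomes, M6pr was at 0.46 and Igf2r at 0.23. Relative to M6pr within each library, Igf2r was at a log2 ratio of -0.76 ± 0.0434 in control and -1.15 ± 0.0443 in labelled knockout, a difference of -0.38 (SE 0.0358), so that Igf2r lost ground to M6pr although both were higher. This was 1 of 11 such ratios, chosen after values had been seen. For 9 of them the groups did not overlap, each with p = 0.1 in an exact two-sided permutation test, the smallest that 3 against 3 libraries allow, and 0.122 after Benjamini-Hochberg adjustment over the 11.

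Grb10 had the largest change after Airn. Grb10 (ENSMUSG00000020176, chr11:11930508-12038683, minus strand) encodes an adaptor that binds the insulin and IGF1 receptors and restrains their signalling and growth, and is known to be read from the maternal copy in most tissues and from the paternal copy in neurons. Counts of Grb10 were 1412, 1301 and 1283 in control and 485, 500 and 566 in labelled knockout. The highest labelled knockout library was thus far below the lowest control library. Normalized levels were 48.1 ± 1.84 and 19.6 ± 0.937 cpm, a 2.45-fold lower level (log2 fold change -1.29, SE 0.0468, adjusted p = 6.37e-29, edgeR). Among the tested genes of its chromosome, Grb10 was at percentile 6.44 of the log2 fold changes.

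The genes on either side of Grb10 moved the other way. Ddc, which encodes the enzyme that makes dopamine and is imprinted in the heart, had 953, 908 and 916 control counts and 1549, 1465 and 1776 labelled knockout counts (log2 fold change 0.86, SE 0.0390, adjusted p = 6.39e-25, edgeR). Cobl, an actin nucleator on the other side, had 1861, 1745 and 1758 against 4983, 5034 and 5287 counts (1.59, SE 0.0317, adjusted p = 1.30e-39). In both cases all labelled knockout libraries were above all control libraries. Of the 6 genes within 1 Mb of Grb10, 5 passed as higher and 0 as lower, beside 34.4% and 35.2% of all genes tested. Their log2 fold changes ran from 0.39 to 1.59 with a median of 0.74. In control libraries Grb10 stood at a log2 ratio to Cobl of -0.43 ± 0.0281, and in those labelled knockout at -3.31 ± 0.0724, a difference of -2.88 (SE 0.0448). Against Ddc the difference was -2.15 (SE 0.0446). Scaling within the chromosome left Grb10 at -1.34.

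**Figure D3:**
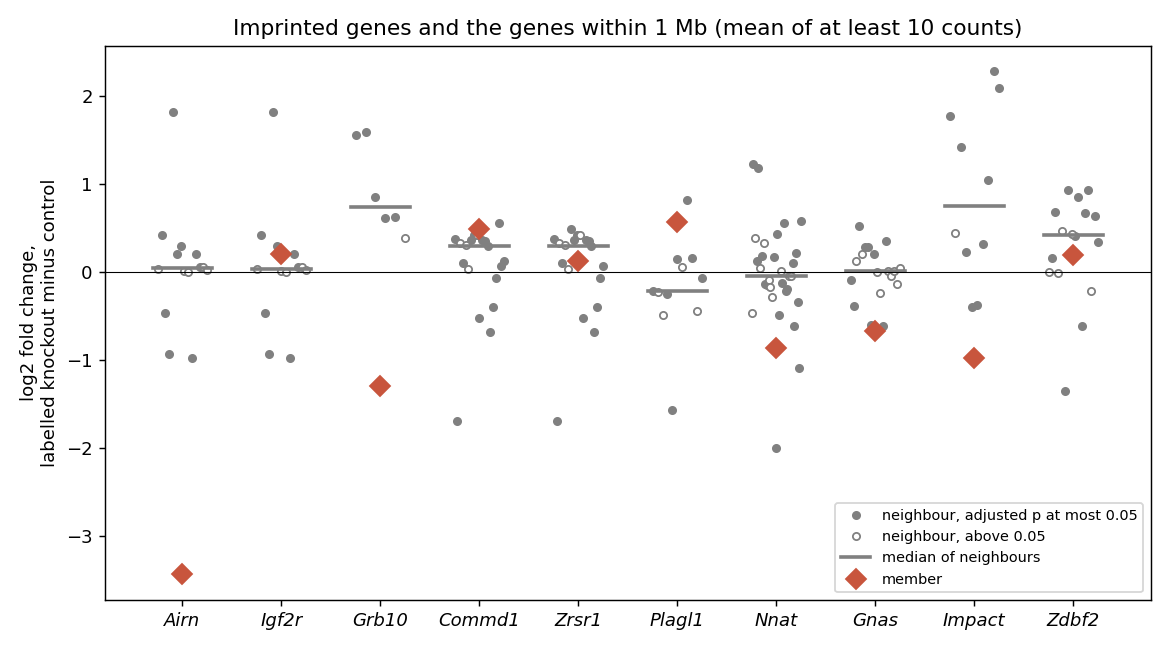
Log2 fold change (knockout minus control) of each of the 10 genes (red diamonds) above its name, with the genes within 1 Mb as grey points, filled where the adjusted p was at most 0.05, and their median as a line. The neighbours of Grb10 lie between 0.39 and 1.59 while Grb10 is at -1.29, and those of Impact run from -0.39 to 2.28.

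GRB10 acts on IGF and insulin signalling. Of 14 listed IGF and insulin signalling genes, 13 were tested and all 13 passed, beside 69.5% of all genes, 3 as higher and 10 as lower, with a median log2 fold change of -0.63. Those with the most counts were Igfbp2, an IGF-binding protein (0.86, SE 0.0267), Grb7, a relative of Grb10 (-0.21, SE 0.0346), and the kinase gene Akt1 (-0.90, SE 0.0347). Igfbp2 lies on chromosome 1, whose median was 0.50, and was at 0.36 once scaled within that chromosome. Igf2, the imprinted growth factor itself, fell from 1020, 1004 and 1045 counts to 34 in each library labelled knockout (-4.83, SE 0.0859, adjusted p = 8.78e-42, edgeR). This ligand of IGF2R is thus the list member with the greatest difference, and it also belongs to the imprinted genes of chromosome 7.

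Zrsr1 lies within Commd1 and is read from the opposite strand. Zrsr1 (ENSMUSG00000044068, chr11:22972005-22976496, plus strand) is a retrogene that encodes a relative of the small U2AF splicing subunit and is known as paternally expressed. Zrsr1 had 555, 584 and 615 counts in control and 586, 541 and 689 in labelled knockout. The groups overlapped, with 19.7, 21.3 and 22.4 against 22.4, 22.0 and 24.4 normalized cpm. The log2 fold change was 0.12 (SE 0.0547, adjusted p = 0.0441, edgeR), and 9 of 16 alternative analyses lost the call, leaving out control replicate 1 (adjusted p = 0.279), control replicate 2 (0.0772) or labelled knockout replicate 3 (0.270) among them. Zrsr2, the X-linked relative, was higher (0.21, SE 0.0370, adjusted p = 1.76e-06), and the log2 ratio of Zrsr1 to Zrsr2 overlapped between groups (difference -0.09, SE 0.0708). Of 8 U2AF and ZRSR splicing genes, 5 were higher, 0 were lower and 3 did not pass, U2af2 being among the latter (0.03, adjusted p = 0.257), with a median of 0.12.

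Commd1, the other gene of the pair, was also higher. Commd1 (ENSMUSG00000051355, chr11:22896136-22982382, minus strand) encodes a protein of copper handling and endosomal sorting that works in a complex of COMMD proteins with CCDC22 and CCDC93. Its counts were 620, 566 and 518 in control and 765, 714 and 788 in labelled knockout, with no overlap after normalization (20.5 ± 1.59 against 28.7 ± 0.728 cpm). This was 1.40-fold higher (log2 fold change 0.49, SE 0.0522, adjusted p = 1.68e-11, edgeR). The log2 ratio of Commd1 to Zrsr1 was -0.04 ± 0.204 in control and 0.33 ± 0.115 in labelled knockout, without overlap. Its exact permutation p of 0.1 (0.122 adjusted) is that of every ratio without overlap, the smallest possible, so the test could not pass any ratio. Exons of the pair overlap on opposite strands over 9.17% of the exon bases of Zrsr1, and the counting used the strand. Of 11 other COMMD and CCC complex genes, 6 were higher, 4 were lower and 1 did not pass, with a median of 0.14, Commd10 at 0.58 (SE 0.0355) and Commd4 at -0.34 (SE 0.0427) being among the most counted.

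Plagl1 (ENSMUSG00000019817, chr10:13060504-13131694, plus strand) encodes a zinc finger transcription factor that slows cell division and acts on other imprinted genes, and is known as paternally expressed. Its counts were 494, 450 and 488 in control and 643, 621 and 756 in labelled knockout libraries. All labelled knockout values were above all control values, at 25.5 ± 1.11 against 17.2 ± 0.752 cpm, a 1.48-fold difference (log2 fold change 0.57, SE 0.0539, adjusted p = 3.40e-13, edgeR). It was the most raised of the 10 genes, at percentile 90.1 of its chromosome. Phactr2, a gene of the same region, was also higher (0.82, SE 0.127, adjusted p = 1.50e-07), from 70, 67 and 70 counts to 124, 116 and 108, and the ratio of Plagl1 to Phactr2 overlapped between groups. Across the 11 genes within 1 Mb, 3 were higher and 4 were lower, with a median of -0.21.

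Nnat and Gnas are both on chromosome 2 and were both lower. Nnat (ENSMUSG00000067786, chr2:157560078-157562522, plus strand) lies within Blcap and encodes a small membrane proteolipid of neural and endocrine cells, known as paternally expressed. Nnat counts were 719, 786 and 796 in control and 404, 380 and 417 in labelled knockout, or 27.7 ± 1.89 against 15.2 ± 0.394 cpm. Without any overlap, Nnat was 1.82-fold lower (log2 fold change -0.86, SE 0.0560, adjusted p = 6.28e-19, edgeR). Its host Blcap, with 693, 710 and 689 against 633, 666 and 755 counts, did not pass (0.05, SE 0.0501, adjusted p = 0.415). The log2 ratio of Nnat to Blcap was 0.14 ± 0.0781 in control and -0.77 ± 0.109 in labelled knockout, a difference of -0.91 (SE 0.0776) without overlap. Among the 30 genes within 1 Mb, 10 were higher and 10 were lower, with a median of -0.04.

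Gnas (ENSMUSG00000027523, chr2:174284320-174346744, plus strand) encodes the stimulatory G protein subunit that couples receptors to cAMP production. The same gene model starts at several promoters, for the maternally read Nesp, the paternally read XL form and the mostly biallelic Gs subunit, and the counts pool them. They were 3884, 3830 and 3858 in control and 2311, 2148 and 2458 in labelled knockout, or 139 ± 1.25 against 87.6 ± 0.775 cpm. The spread within groups was small beside this 1.59-fold lower level (log2 fold change -0.67, SE 0.0286, adjusted p = 5.41e-26, edgeR). Nespas, the paternally read antisense transcript of the domain, had 96, 109 and 102 against 92, 67 and 89 counts and did not pass (-0.24, SE 0.126, adjusted p = 0.0924). Exons on the opposite strand overlap 22.0% of the exon bases of Gnas. Of 16 Gs and cAMP signalling genes, 5 were higher, 9 were lower and 2 did not pass, with a median of -0.09, Gnb1 being at -0.16 (SE 0.0237) and Gnai2 at -0.51 (SE 0.0254).

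Impact (ENSMUSG00000024423, chr18:12955852-12992950, plus strand) encodes an inhibitor of the kinase GCN2 (gene Eif2ak4), which it keeps from its activator GCN1, and is known as paternally expressed in mouse. It had 8380, 8278 and 8060 counts in control and 3930, 3793 and 4161 in labelled knockout. The groups were far apart, at 298 ± 3.85 against 151 ± 3.34 cpm, a 1.98-fold lower level (log2 fold change -0.98, SE 0.0259, adjusted p = 1.51e-34, edgeR). Osbpl1a, the gene beside it, was also lower (-0.39, SE 0.0394, adjusted p = 2.16e-12), from 1579, 1444 and 1609 counts to 1114, 1038 and 1204. The log2 ratio of Impact to Osbpl1a still differed by -0.59 (SE 0.0611), without overlap. Of the 10 genes within 1 Mb, by contrast, 7 were higher and 2 were lower, with a median of 0.75. Of all genes tested, 34.4% were higher and 35.2% were lower.

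The partners of IMPACT moved less than Impact. The list for GCN1, the eIF2 kinases and their ribosome-associated relatives held 11 symbols, among them Gcn1l1 and its other name Gcn1. The 10 genes found in the counts were all tested, of which 8 were higher, 1 was lower and 1 did not pass. Their log2 fold changes ran from -0.11 to 0.45 with a median of 0.19. The member that was lower was Gcn1l1, which encodes GCN1 (-0.11, SE 0.0251, adjusted p = 0.000153, edgeR). Drg1, a ribosome-associated GTPase gene, was at 0.45 (SE 0.0261) and Eif2s1, which encodes the substrate of the kinases, at 0.18 (SE 0.0257).

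Zdbf2 (ENSMUSG00000027520, chr1:63273265-63314576, plus strand) encodes a zinc finger protein that is read from the paternal copy and, in young mice, acts in the brain on feeding and growth. Its counts were 6864, 6140 and 6232 in control and 6928, 6509 and 7540 in labelled knockout libraries. After normalization the groups did not overlap, at 231 ± 10.9 against 266 ± 1.37 cpm. The log2 fold change was 0.20 (SE 0.0270, adjusted p = 8.94e-09, edgeR), but chromosome 1 as a whole had a median of 0.50 over 980 genes, of which 76.7% were higher. Scaled within chromosome 1, Zdbf2 was at -0.30 (SE 0.0267, adjusted p = 8.46e-14), so its direction is relative to the scaling. The cause of this shift of a whole chromosome was not tested. The medians of the chromosomes of the other 9 genes lay between -0.04 and 0.04.

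Genes near Zdbf2 did not share a value. Adam23 did not pass under the common scaling (-0.00, SE 0.0287, adjusted p = 0.902), and the log2 ratio of Zdbf2 to Adam23 was 0.20 higher in labelled knockout (SE 0.0307). Against Gpr1, a low gene that also did not pass (0.44, SE 0.236, adjusted p = 0.0959), the log2 ratio of Zdbf2 differed by -0.25 (SE 0.0803). Scaled within chromosome 1, Adam23 was lower, at -0.50 (SE 0.0287, adjusted p = 1.38e-20, edgeR). Gpr1 was then at -0.06 (SE 0.236, adjusted p = 0.833). Of 16 genes within 1 Mb, 9 were higher and 2 were lower under the common scaling, with a median of 0.42. The shares over all genes tested were 34.4% and 35.2%. The noncoding gene Platr12, named after its values were seen, overlaps the window of the distal start site of Zdbf2. It was at 0.64 under the common scaling (SE 0.124, adjusted p = 1.15e-05, edgeR), beside the median of 0.50 of chromosome 1.

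Per kilobase of the longest annotated transcript, the order of levels also differed between groups. In the control libraries Impact was highest, at 79.1 ± 1.02 normalized cpm per kilobase, followed by Gnas at 35.3 ± 0.317. Nnat (19.1 ± 1.30) and Zdbf2 (18.3 ± 0.867) came next and overlapped. Igf2r (11.5 ± 0.194) and Grb10 (9.50 ± 0.363) followed, then Zrsr1 (4.70 ± 0.299) and Commd1 (4.55 ± 0.352), which overlapped, then Plagl1 (3.28 ± 0.143). Airn was last, at 0.333, for a longest annotated transcript of 1375 bases. Its RNA outside annotated exons was not counted. In the libraries labelled knockout Impact (40.0 ± 0.888) and Gnas (22.2 ± 0.196) kept the first places, Zdbf2 (21.0 ± 0.109) was close behind without overlap, and Igf2r (13.3 ± 0.360) stood above Nnat (10.5 ± 0.272). Commd1 (6.37 ± 0.161) came next, and Zrsr1 (5.11 ± 0.287) and Plagl1 (4.86 ± 0.212) overlapped. Grb10, at 3.88 ± 0.185, stood below Plagl1, and in control it had stood above it and both genes of the Commd1 locus.

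**Figure D4:**
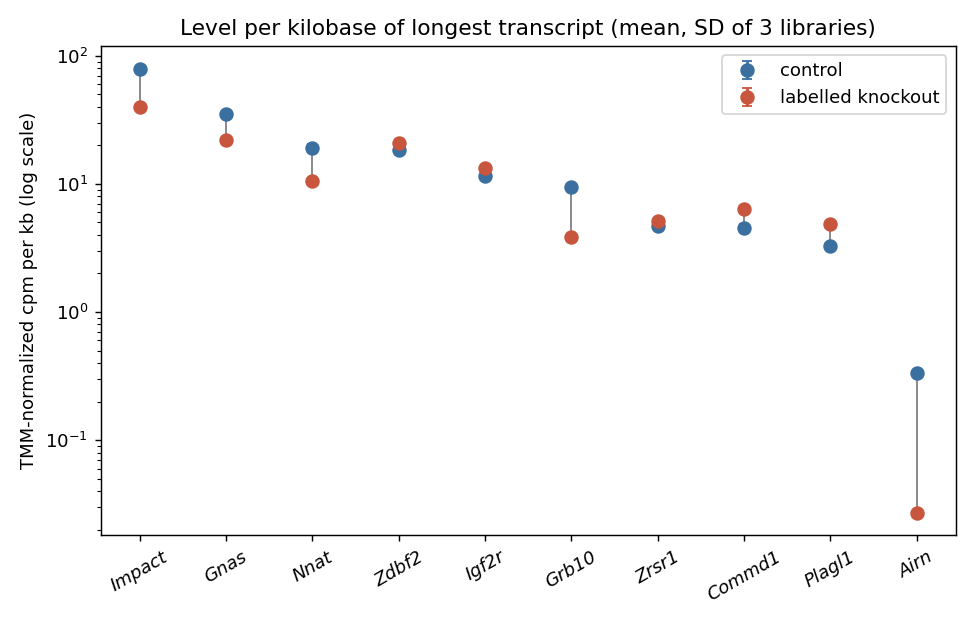
Level of each gene in TMM-normalized cpm per kilobase of the longest transcript (log axis), as the mean of the 3 control libraries (blue) and of the 3 labelled knockout libraries (red), joined by a grey line. SD bars are smaller than the points and are not drawn for Airn. Impact is highest in both groups, and Grb10 goes from 9.50 to 3.88.

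Genes whose proteins place and keep imprints were called about as often as other genes. Of 18 such genes, 13 passed, beside 69.5% of all genes tested, 4 as higher and 9 as lower, with a median of -0.08. Zfp57 was higher, with 9170, 9185 and 9113 against 12681, 12309 and 13923 counts (log2 fold change 0.58, SE 0.0236, adjusted p = 9.92e-27, edgeR). Its partner Trim28 was at 0.01 (SE 0.0214, adjusted p = 0.820), and the maintenance methyltransferase gene Dnmt1 and its cofactor Uhrf1 did not pass either (0.04 and -0.05). The genes of de novo methylation were lower, Dnmt3b at -2.07 (SE 0.0280), Dnmt3l at -0.94 (SE 0.0272) and Dnmt3a at -0.33 (SE 0.0268), while Tet2, which encodes an enzyme that oxidizes 5-methylcytosine, was at 1.23 (SE 0.0281). DNA methylation was not measured here.

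Other imprinted genes were counted in the same way, beside the 34.4% of all genes tested that were higher and the 35.2% that were lower. Of 9 further genes at scattered domains 5 were tested, of which 4 were lower and 1 was higher, with a median of -0.22. Sfmbt2, a Polycomb gene known as paternally expressed, was lowest among them (-1.69, SE 0.0347, adjusted p = 4.45e-39, edgeR), from 2987, 2908 and 2878 counts to 856, 798 and 936. Of 27 tested genes in the domains of chromosomes 6, 7 and 12, 20 were lower, 5 were higher and 2 did not pass, with a median of -0.67, and Peg10 (-1.92), Rian (-2.44) and H19 (-3.59) had the most counts there. The 10 genes described here divided evenly between higher and lower under the common scaling. Of the 15 genes listed as their domain neighbours 9 were tested, of which 3 were higher, 1 was lower and 5 did not pass, with a median of 0.30.

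The genes with a pattern most like that of Airn, the gene with the largest change, were sought over the 6 libraries among 12360 genes, those whose mean count was 50 or more. The measure was the Euclidean distance between log2 cpm centred on each gene's mean. A small count was added in each library before the log2, which shrinks differences between low counts such as those of Airn. The closest were Pramel7 (distance 0.396), Sct (0.432) and Cnksr1 (0.460). Their log2 fold changes were -2.34, -2.51 and -2.37, smaller in size than the fitted -3.44 of Airn. Pramel7, for example, had 266, 255 and 264 control counts and 41, 43 and 63 labelled knockout counts. With at most 13 counts of Airn in a library, this likeness is limited by counting error.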

How the data were processed

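TruSeq Stranded mRNA libraries, prepared from 2 μg of total RNA with 8 PCR cycles, were sequenced as 76 bp pairs. The authors removed rRNA reads with Bowtie2 2.1.0, mapped to mm10 with TopHat2 2.0.10, and counted fragments per GENCODE M4 gene with HTSeq 0.6.1 in union mode on the sense strand. Fragments at multiple genes or locations were discarded. The deposited values are these raw counts, without normalization. No 76-base word of the members' transcripts was shared in the same sense with another gene except in Commd1, for which 4.96% of words were shared with Gm28048, a gene with no counts.

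Symbols and coordinates came from GENCODE M21 on the same build, which matched 42425 of 43309 identifiers. No column lacked a sample. Counts were tested with edgeR 4.0.16 in R 4.3.3 (TMM, glmQLFit, glmQLFTest, no covariate) over genes reaching 10 counts in 1 or more libraries, with the Benjamini-Hochberg FDR at most 0.05. The SE is the log2 fold change divided by the square root of F. The common dispersion corresponded to a coefficient of variation of 2.004% between libraries of a group. The test was tried on simulated counts. Normalized cpm used TMM factors, and levels between genes were divided by the longest transcript.

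Library totals were 27754105, 26988950 and 26987179 in control and 26461798, 25042261 and 28838924 in labelled knockout. Replicates differed from each other by 1.14 to 2.24 times the variance of sampling, and no pair was identical. Reads carry no molecular identifiers, so counting intervals cover counting error only.

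The 10 members, the 10 gene lists and the marker lists were chosen with earlier results of these data known. Named genes were all members, Zbtb24, all detected genes of the neighbour and imprint maintenance lists, at most 3 of each other list by mean count, and the 3 genes closest to the most changed member. Igf2, Zrsr2, Postn and Platr12 were named after their values were seen. The 11 within-library ratios were added after the data were seen. In all, 16 alternatives were run, DESeq2 1.42.0 among them.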

Additional observations from a re-analysis of the deposited data

How the results depend on the processing

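Of the 10 genes, 10 passed the test in the main analysis, and 9 or 10 did when each library was left out in turn. A minimum of 1 for the size of the log2 fold change left 2, of which 0 were higher and 2 were lower, left 35 of the 128 called genes of the lists and did not pass Zbtb24 (0.99). With TMM scaling within each chromosome 3 genes were higher, and Zdbf2 reversed to -0.30 (adjusted p = 8.46e-14, edgeR). This reversal follows from the median of chromosome 1, which that scaling removes. Zrsr1 lost its call in 9 of 16 alternatives, with adjusted p from 0.0164 to 0.279 and log2 fold changes of 0.07 to 0.16 with each library left out. DESeq2 (0.161), scaling within chromosomes (0.230), upper-quartile scaling (0.0574) and a mean of at least 10 counts (0.0571) were among them. Airn kept its call in the 15 alternatives that tested it. It had no value under the mean of at least 10 counts, and it ran from -4.24 to -2.91. Grb10 kept its call in all 16 alternatives. Igf2r, Plagl1, Commd1, Nnat, Impact and Gnas lost theirs only under the fold threshold.

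The replicate numbers come from the sample titles and nothing pairs the lines. Deviations of libraries with the same number correlated at 0.0366, 0.0430 and 0.0167, each above the correlations with other numbers, which is a hint from the data alone. With the number as a replicate block, 10 of the 10 genes and 11801 genes in all passed, against 11697 without it. DESeq2 called 10326 genes. Airn, with at most 13 counts in a library, is the member whose precision is limited by depth.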
